A study of Homo sapiens with 62 samples.

Results

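The AP-1 transcription factors examined here were FOS, FOSB, FOSL1, FOSL2, JUN, JUNB, JUND, ATF3 and BATF3, chosen by gene name as 9 of the 29794 genes in the SLAM-seq tables of 2 human pancreatic ductal adenocarcinoma (PDAC) cell lines, AsPC-1 and T3M-4. SLAM-seq labels RNA made during a short pulse with 4-thiouridine, which is read as thymine-to-cytosine (T>C) conversions. The reads with conversions report RNA made during the 2 h of labelling and all reads report the RNA present. Every library came from cells of the genotype FKBP12-F36V-FLAG-KLF5_sgEndogenousKLF5, in which the endogenous copy of the transcription factor KLF5 was knocked out and replaced by a copy with a degradable tag. The cells were treated for 4 h with dTAG (dTAGv-1, which degrades the tagged KLF5), with NEG (dTAGv-1-NEG, its inactive analogue), with CB-6644 (an allosteric inhibitor of the ATPases RUVBL1 and RUVBL2), with NVP-2 (an inhibitor of CDK9, the kinase that releases paused RNA polymerase II) or with DMSO, the solvent, and AsPC-1 cells also for 12 h with CB-6644 or DMSO. For AsPC-1 at 4 h, there were 10 libraries with dTAG, 10 with NEG, 4 with NVP-2 and 5 each with DMSO and CB-6644. At 12 h there were 4 each with CB-6644 and DMSO. For T3M-4 each of the 5 treatments at 4 h had 4.

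AP-1 is a dimer of basic leucine zipper (bZIP) proteins. A JUN family protein can pair with itself or with a FOS family protein, whereas FOS family proteins need a partner, and ATF3 and BATF3 are relatives that pair mainly with JUN proteins. FOS, FOSB, JUN, JUNB and ATF3 are immediate early genes whose short-lived RNA follows growth factor and stress signalling through MAP kinases. FOSL1 and FOSL2 (the FRA proteins) accumulate with sustained signalling in carcinoma cells, and JUND is the more steadily transcribed member. In epithelial tumours AP-1 binds enhancers together with lineage factors and acts on genes of adhesion, invasion and proliferation.

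Depth differed by treatment. AsPC-1 libraries held 8296433 to 18311982 T>C reads without NVP-2 and 2240998 to 3517345 with it, and T3M-4 libraries held 13562612 to 27982537 and 3714015 to 4982006, respectively. All reads numbered 82676553 to 200298262 per library in AsPC-1 and 111132257 to 244524608 in T3M-4. The all-reads values of dTAG library 3.1 in AsPC-1 equalled the T>C values of a DMSO 12 h library in 29794 genes and were left out, so that all reads and labelled shares of that group rest on 9 libraries. In DMSO at 4 h, 5 of 5 epithelial markers exceeded 1 CPM (the reads of a gene scaled to a fixed library total) of all reads in every library of both lines. The summed classical markers ranged from 331 to 558 CPM in AsPC-1 against 27.6 to 94.6 in T3M-4, and the summed basal-like markers from 15.4 to 57.1 against 2800 to 4302. The summed haematopoietic markers reached at most 3.19 CPM, the endothelial markers 1.13 CPM and the fibroblast markers 0.119 CPM in AsPC-1 and 8.79 CPM in T3M-4. A library label such as 2.1 gives the experiment and the library within it, and libraries of 1 experiment may be technical repeats, so p-values measure the spread between libraries. In bulk RNA, fewer cells of a kind and less RNA per cell cannot be told apart. Overlap of groups was examined for the AP-1 members only, so no share of all genes stands beside it.

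Reads were counted over 3′UTRs, in which AP-1 messages carry AU-rich elements, the sequences through which immediate early RNAs are bound and degraded. ATTTA, the core of such elements, was searched for on the sense strand of each annotated 3′UTR, with overlaps counted, and occurred in 69.1% of 18780 3′UTRs. The 3′UTR of FOS (ENSG00000170345.10, hg38 chr14:75281422-75282230, plus strand) held 5 copies in 809 bases, or 6.18 per kb, whereas JUNB (ENSG00000171223.6, chr19:12792813-12793315, plus strand) held 2 in 503 bases and JUN (ENSG00000177606.9, chr1:58780791-58782077, minus strand) 3 in 1287. JUND (ENSG00000130522.6, chr19:18279694-18280443, minus strand) and FOSL1 (ENSG00000175592.9, chr11:65892049-65892888, minus strand) held 1 copy each, in 750 and 840 bases. The stretch of 30 bases with the most copies is shown for these 5 genes because their labelled shares spanned the range of the family. Capitals mark ATTTA, and the FOS stretch, at chr14:75282057-75282086, holds 2 overlapping copies.
FOS: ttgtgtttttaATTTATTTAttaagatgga
JUNB: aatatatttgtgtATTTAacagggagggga
JUN: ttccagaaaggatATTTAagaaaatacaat
FOSL1: gagggcagctgctATTTAttttcctaaaga
JUND: tcgattctgccctATTTAtgtttctactcg
The other windows lie at chr19:12793059-12793088 (JUNB), chr1:58781336-58781365 (JUN), chr11:65892272-65892301 (FOSL1) and chr19:18279998-18280027 (JUND). FOSB (ENSG00000125740.15, chr19:45473010-45475179), FOSL2 (ENSG00000075426.12, chr2:28412446-28417317), ATF3 (ENSG00000162772.18, chr1:212619553-212620775), all on the plus strand, and BATF3 (ENSG00000123685.9, chr1:212686417-212686793, minus strand) held 3, 9, 3 and 1 copies in 2170, 4872, 1223 and 377 bases. Among 3′UTRs within 20% of the same length, 69.3% held at least 1 copy for FOS, 53.4% for JUNB and 98.8% for FOSL2, so a copy was common in 3′UTRs of these lengths. ERCC1 spans FOSB and HOOK2 spans the 3′UTR of JUNB on the opposite strand, with 0 bases of their exons in either 3′UTR.

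Promoters are shown for JUNB and JUND. JUNB was the member called in T>C reads with KLF5 degradation. JUND had the largest change of the members at 12 h of CB-6644 in T>C reads, which DESeq2 called and edgeR did not. They are the 250 bases before the RefSeq start (GRCh38.p14) at chr19:12791236-12791485 on the plus strand for JUNB and chr19:18281623-18281872 on the minus strand for JUND. Capitals mark motifs found on either strand. The box of KLF and SP factors was searched for as GGGNGGG. The CCAAT box and the TATA box were searched for by those letters, the latter as TATAAA. The cyclic AMP response element was searched for as TGACGTCA.
JUNB: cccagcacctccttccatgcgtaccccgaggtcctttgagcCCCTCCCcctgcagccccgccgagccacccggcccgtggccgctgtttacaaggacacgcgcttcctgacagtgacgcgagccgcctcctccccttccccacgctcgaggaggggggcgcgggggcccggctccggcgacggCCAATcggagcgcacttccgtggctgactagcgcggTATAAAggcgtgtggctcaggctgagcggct
JUND: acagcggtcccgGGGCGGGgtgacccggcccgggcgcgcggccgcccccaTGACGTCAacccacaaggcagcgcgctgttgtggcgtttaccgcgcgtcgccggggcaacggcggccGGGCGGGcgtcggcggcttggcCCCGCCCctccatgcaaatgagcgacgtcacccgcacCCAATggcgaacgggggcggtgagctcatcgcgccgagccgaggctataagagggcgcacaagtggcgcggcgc
The JUNB promoter held 1 KLF and SP box, a CCAAT box 67 bases before the start and a TATA box 31 bases before it. The JUND promoter held 3 KLF and SP boxes, a CCAAT box 74 bases and a cyclic AMP response element 200 bases before the start, and no TATA box by these letters. Of 35116 promoters of the same length, 51.6% held a KLF and SP box, 32.0% a CCAAT box, 10.7% a TATA box and 1.65% a cyclic AMP response element. TGANTCA, the AP-1 site itself, was found in 0 of the 8 promoters available for 7 of the 9 members and in 6.57% of all promoters. The JUN promoter and 1 of the 2 ATF3 promoters held the variant TGACATCA, which 2.37% of promoters held.

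In DMSO at 4 h the family differed in how much of its RNA was new. The labelled share, the percentage of a gene's reads with conversions, averaged 65.6% for FOS, 61.1% for JUNB and 47.3% for JUN in AsPC-1, between 34.6% and 42.3% for FOSL2, FOSL1, FOSB and ATF3, and 23.1% ± 1.84 (SD, n = 5) for JUND. In T3M-4 the shares of FOS and JUNB were 81.6% ± 5.51 and 81.0% ± 0.629 (SD, n = 4), followed by JUN at 67.5%, FOSB at 53.7%, FOSL2 at 49.6%, ATF3 at 47.5%, FOSL1 at 42.5% and JUND at 34.2% ± 1.51. FOS and JUNB did not differ beyond their spread in either line, nor did FOSL1 and FOSB in AsPC-1 or FOSL2 and ATF3 in T3M-4. Shares over all genes were 7.58 to 10.6% per library in AsPC-1 and 11.0 to 14.3% in T3M-4 without NVP-2. A share also depends on how many thymines the counted reads hold, and T made up 36.0% of the last 100 bases of the FOS 3′UTR, 49.0% of JUNB and 29% of JUND.

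Between the lines, 6 of the 8 members tested differed in T>C reads in DMSO at 4 h (edgeR quasi-likelihood test, Benjamini-Hochberg adjusted p under 0.05 over all genes), 3 higher and 3 lower in T3M-4, where 48.4% of all genes tested were called. The 3 higher members were FOSL1 (314, 442, 473 and 487 CPM of T>C reads in T3M-4 against 212, 175, 259, 274 and 204 in AsPC-1), FOSL2 and JUNB. The groups of FOSL1 did not overlap, and its log2 difference was 0.97 (SE 0.21, edgeR adjusted p = 0.00238), beside 0.77 (adjusted p = 0.0214) for FOSL2 and 1.06 (adjusted p = 0.019) for JUNB. The 3 lower members were FOS at -1.70 (adjusted p = 0.0169), JUN at -1.001 (adjusted p = 0.0117) and JUND at -1.32 (adjusted p = 0.00232). FOSB and ATF3 were not called, at -0.55 and 0.62. Both turned on the AsPC-1 DMSO library 2.1, without which they stood at 1.59 (edgeR adjusted p = 0.00469) and 2.23 (adjusted p = 0.00519). In all reads 7 of 9 members were called beside 55.7% of all genes, the same 6 in the same direction and BATF3 at 1.41 (adjusted p = 0.0347). The T>C calls of FOSL2 and JUNB were lost without the AsPC-1 library 2.2 or either T3M-4 library of experiment 2 (adjusted p up to 0.0795 and 0.0829), that of FOSL2 also without the AsPC-1 library 1.3, and that of FOS without the T3M-4 library 2.2 (adjusted p = 0.0508). In all reads, the call of JUNB was lost in 6 of 9 fits with 1 library left out (adjusted p up to 0.144), that of BATF3 in 5 (up to 0.113) and that of FOSL2 in 3 (up to 0.078). BATF3 was near the limit of detection throughout, with 0 to 19 T>C reads and 0 to 61 of all reads per library.

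**Figure D1:**
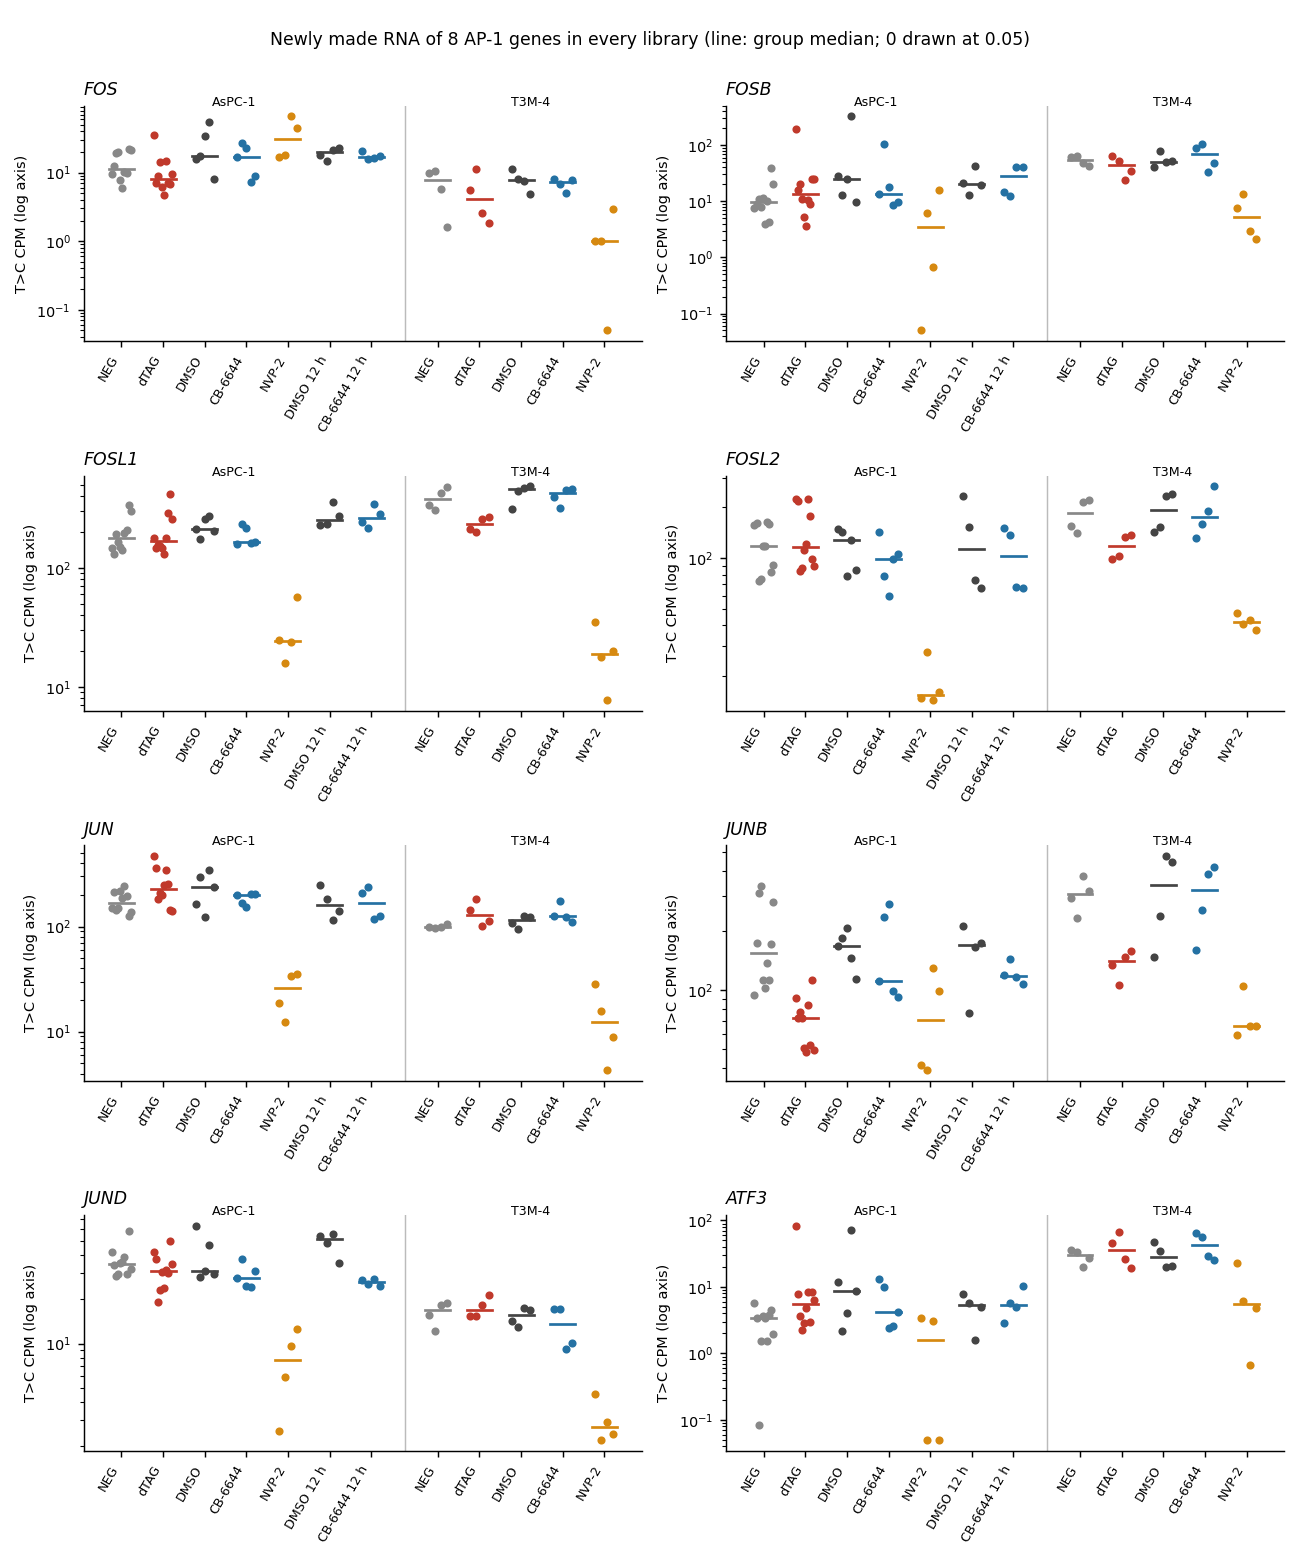
T>C CPM of 8 AP-1 members on a log axis in every library, by treatment and line, with a line at each median and values of 0 drawn at 0.05. JUNB is lower in dTAG than in NEG in both lines, most members are lowest in NVP-2, and single AsPC-1 libraries carry FOSB of 324 and 197 CPM and ATF3 of 73.0 and 82.7 CPM.

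AsPC-1 controls varied by library. The 38 AsPC-1 libraries without NVP-2 fell into 3 sets when clustered on the 500 most variable genes of the T>C reads. The NVP-2 libraries were not clustered and were placed in the first or the second set by the all-reads level of a single gene, DCLK1. The sets of the 42 libraries then held 17, 17 and 8 libraries and cut across treatments. Without NVP-2, they largely followed the library labels. The smallest set held every experiment 2 library without NVP-2 and no other. For dTAG and NEG, libraries 1.1, 1.2, 3.1 and 3.2 were in the first set and 1.3, 1.4, 3.3 and 3.4 in the second. At 12 h, libraries 1 and 2 were in the first set and 3 and 4 in the second. At 4 h, library 1.2 was in the second set for CB-6644 and in the first for DMSO. Among control libraries, FOSL2 ranged from 143 to 234 T>C CPM in the first set, from 66.8 to 91.4 in the second and from 85.5 to 128 in the smallest. JUNB ranged from 76.4 to 210, 166 to 337 and 102 to 146 CPM in the same sets. The T>C counts of FOSL2 were even in 62 of 62 libraries and its all-reads counts in 59 of 61, so its reads may have been counted in duplicate, and the FOSL2 CPM given here may be up to 2 times too high. What sets the library sets apart, beyond these labels, was not tested, nor was whether libraries of 1 experiment are technical repeats.

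With KLF5 degradation JUNB, an immediate early JUN protein, fell in both lines. In AsPC-1 the 10 dTAG libraries held 48.4 to 113 T>C CPM of JUNB (median 71.8, mean 71.0 ± 21.3 SD) and the 10 NEG libraries 94.4 to 337 (median 154, mean 183 ± 91.5). By experiment, dTAG against NEG was 91.3, 71.8, 77.7 and 71.7 against 94.4, 173, 309 and 337 in the first, 50.7 and 48.4 against 113 and 102 in the second, and 83.4, 52.5, 112.8 and 49.8 against 137, 112.9, 170 and 279 in the last. Every dTAG library was below every NEG library of its own experiment, and the pooled groups overlapped because dTAG library 3.3 lay above 3 NEG libraries of the other experiments. JUNB fell 2.54-fold (log2 -1.34, SE 0.25, edgeR adjusted p = 0.00257). It was the only 1 of the 8 members tested to be called, where 2.4% of all genes tested were called.

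In T3M-4, JUNB stood at 133, 106, 148 and 157 T>C CPM in dTAG and at 294, 231, 378 and 317 in NEG. The groups did not overlap, and JUNB fell 2.36-fold (log2 -1.24, SE 0.22, edgeR adjusted p = 0.0276). It was again the only 1 of 8 members called, beside 0.834% of all genes. The effect in T3M-4 minus that in AsPC-1 was 0.13 (SE 0.42, edgeR adjusted p = 1). In this test of the difference between the lines 0 of 8 members were called by edgeR and 0 by DESeq2, beside 0.0426% and 0.263% of all genes. Unadjusted edgeR p were under 0.05 for 2 of the 8 and for 824 of 14088 genes.

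**Figure D2:**
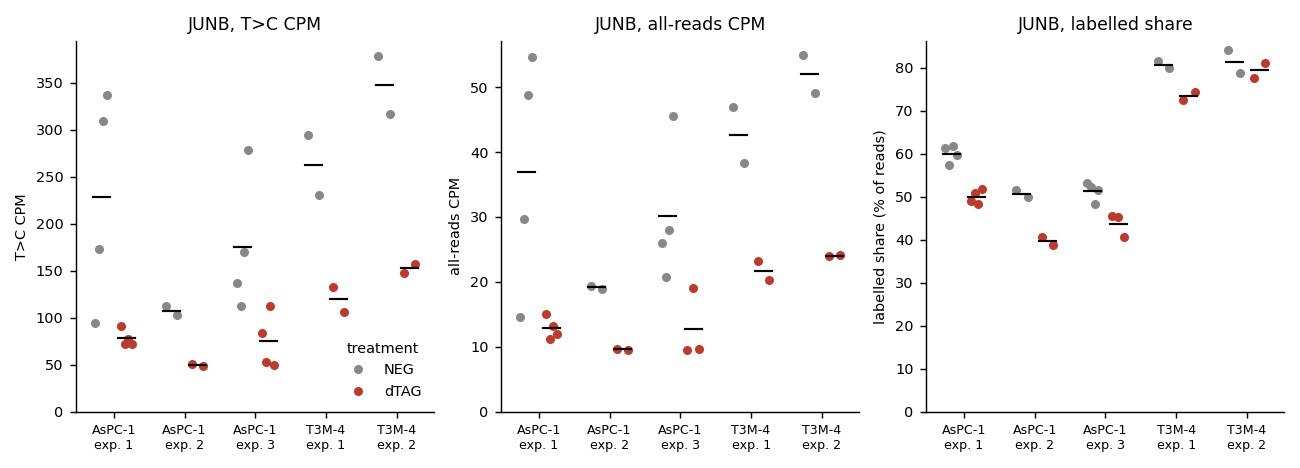
JUNB in NEG and dTAG libraries of each experiment as T>C CPM, CPM of all reads and labelled share (%), with bars at the means. The dTAG libraries lie below the NEG libraries of the same experiment in T>C reads in both lines, and the shares overlap in both lines, with means of 45.6% in dTAG and 54.7% in NEG in AsPC-1.

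JUNB also fell in all reads in AsPC-1, from 14.5 to 54.6 CPM in NEG (median 27.0) to 9.44 to 19.1 in dTAG (median 11.1), with a log2 change of -1.36 (SE 0.24, edgeR adjusted p = 0.00432), the 1 call among 9 members beside 0.797% of all genes. In T3M-4 all reads of JUNB were 23.2, 20.3, 23.98 and 24.1 CPM in dTAG and 47.0, 38.3, 54.9 and 49.2 in NEG, with no overlap, at a log2 change of -1.08 (SE 0.17) that edgeR did not call (adjusted p = 0.133). There 0 of 9 members were called by edgeR beside 0.0191% of all genes, and 2 by DESeq2, which called 0.445% of all genes. Unadjusted edgeR p were under 0.05 for 3 of the 9 and for 533 of 15727 genes. With the experiment as a block 3 members were called in T3M-4 all reads by edgeR, beside 0.508% of all genes, among them JUNB (log2 -1.08, adjusted p = 0.00637).

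In AsPC-1 the T>C change of JUNB stayed between -1.45 and -1.19 with each library or experiment left out. The call was lost without the first experiment or without the third (edgeR adjusted p up to 0.153), in all reads likewise (adjusted p up to 0.351). In T3M-4 the change stayed between -1.36 and -1.11. The call was lost without any of 7 of the 8 libraries (adjusted p up to 0.102), the exception being NEG library 1.2. Within sequencing batches the change of JUNB was -1.44 (edgeR adjusted p = 0.0567) and -1.24 (adjusted p = 0.323) in AsPC-1 and -1.20 (adjusted p = 0.125) and -1.25 (adjusted p = 0.0316) in T3M-4. With libraries summed per experiment it was -1.32 (adjusted p = 0.241) in AsPC-1 and -1.24 (adjusted p = 1) in T3M-4.

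The FRA genes, FOSL1 and FOSL2, were lower in dTAG in T3M-4 without passing the test. FOSL1 stood at 212, 200, 256 and 267 T>C CPM in dTAG against 337, 309, 424 and 484 in NEG, and FOSL2 at 99.5, 103, 133 and 138 against 154, 141, 214 and 221. Neither pair of groups overlapped, but how many of all genes had groups without overlap was not counted. The log2 changes were -0.81 (SE 0.21, edgeR adjusted p = 0.149) and -0.70 (SE 0.22, adjusted p = 0.324). With the experiment as a block edgeR called both, FOSL1 at -0.78 (adjusted p = 0.00615) and FOSL2 at -0.67 (adjusted p = 0.0139), and in all reads as well (adjusted p = 0.0269 and 0.041). That fit called 2.5% of all genes in T>C reads. In AsPC-1, NEG and dTAG overlapped, from 131 to 342 against 132 to 417 CPM for FOSL1 and from 73.0 to 164 against 84.3 to 225 for FOSL2, with changes of 0.07 and 0.28. The differences of effects between the lines, -0.86 for FOSL1 (unadjusted p = 0.0359) and -0.96 for FOSL2 (unadjusted p = 0.0181), were not called by edgeR (adjusted p = 0.836 and 0.739).

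JUN, the founding member of the family, ranged from 126 to 245 T>C CPM in NEG (median 169) and from 140 to 467 in dTAG (median 228) in AsPC-1, a change of 0.55 (SE 0.19, edgeR adjusted p = 0.177). It was called at 0.47 (adjusted p = 0.0195) with library set and experiment as a block, a fit that called 3 of 8 members and 7.17% of all genes. In T3M-4 it was 144, 183, 102 and 112 in dTAG against 98.1, 96.9, 99.8 and 106 in NEG. The T3M-4 groups of JUN overlapped, with the experiment 1 libraries the high ones, at 0.36. JUND differed by -0.15 and 0.04 in the 2 lines, within its spread.

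ATF3, a stress-induced repressor and activator, and FOSB, an immediate early partner of JUN proteins, turned on single libraries in AsPC-1. ATF3 ranged from 2.25 to 82.7 T>C CPM in dTAG (median 5.64) and from 0.0851 to 5.83 in NEG (median 3.41), a log2 change of 2.16 (SE 0.64, edgeR adjusted p = 0.085). Without dTAG library 1.1 it was 0.85 (adjusted p = 0.471), and with library set and experiment as a block 1.55 (adjusted p = 0.0432). FOSB ranged from 3.69 to 197 CPM in dTAG (median 13.4) and from 3.95 to 38.5 in NEG (median 9.54), at 1.39 (SE 0.62, adjusted p = 0.353). The change was 0.16 without dTAG library 1.1 and -0.16 without the first experiment. In T3M-4, ATF3 was 45.2, 67.7, 26.3 and 19.1 in dTAG against 35.7, 33.2, 20.3 and 27.3 in NEG, with overlapping groups. FOS, the prototype immediate early gene, stood at -0.26 in AsPC-1 and, in T3M-4, at -0.46, within its spread.

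The labelled share of 5 of the 9 members fell with dTAG in AsPC-1, where 31.1% of all genes were called (limma on the log2 ratio of converted to other reads) and the median gene changed by -0.33. They were JUNB (45.6% ± 4.75, n = 9, against 54.7% ± 4.93, n = 10; -0.53, limma adjusted p = 0.00994), FOSL1 (28.1% against 34.2%), FOSL2 (33.1% against 39.3%), JUN (39.3% against 45.3%) and JUND (16.7% against 20.2%). The median over the 9 members, -0.36, lay near that of all genes. The call of JUN was lost in 16 of 22 fits with a library or experiment left out (adjusted p up to 0.155). Those of JUNB, FOSL1 and FOSL2 were lost without the first experiment and that of JUND without any of the 3 experiments. Within batches 3 members were called in the first and 0 in the second by limma. The share of all genes called within batches is not given here, so these counts show nothing particular to the members. In T3M-4, 0 of 9 members and 0% of all genes were called by limma (0 members at an unadjusted p under 0.05), and the share of JUNB was 72.5, 74.3, 77.7 and 81.1% in dTAG against 81.6, 80.0, 84.1 and 78.8% in NEG.

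**Figure D3:**
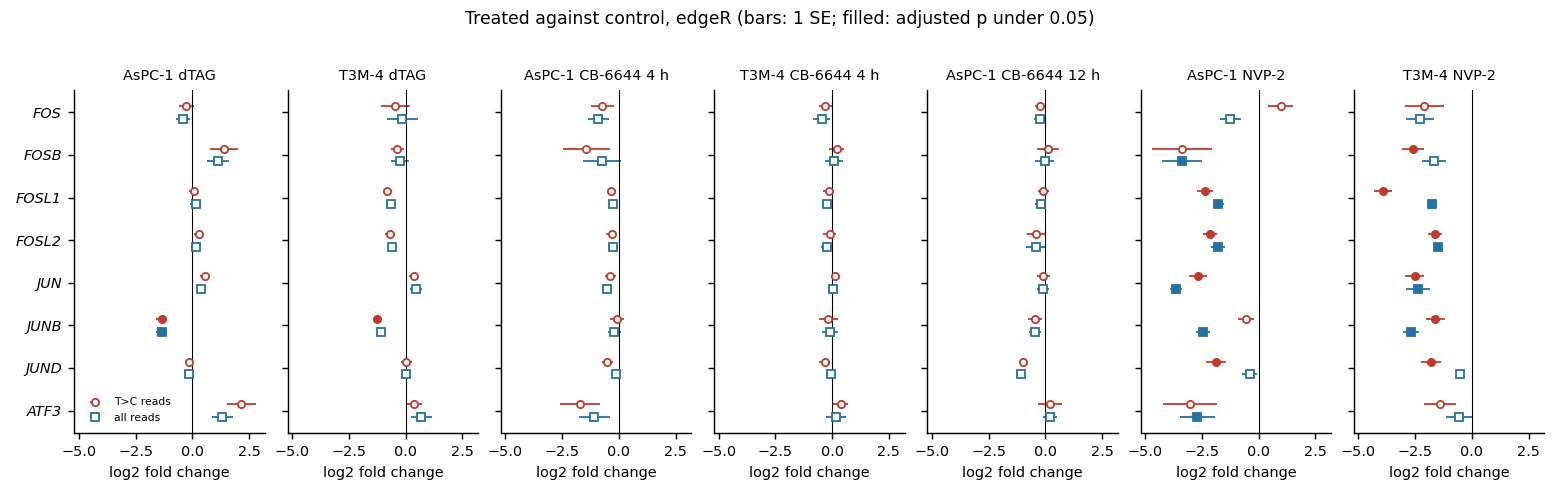
Log2 fold change (± 1 SE) of each member in 7 comparisons, T>C reads as circles and all reads as squares, filled where the adjusted p is under 0.05. JUNB is the filled point under dTAG, at -1.34 in AsPC-1 and -1.24 in T3M-4, no point is filled under CB-6644, and most points lie below 0 under NVP-2.

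Among genes around AP-1, calls with dTAG lay mostly in the list of genes with textbook AP-1 sites, with 4 of 12 called in AsPC-1 and 4 of 19 in T3M-4, beside 2.4% and 0.834% of all genes. The lists were chosen with earlier results of these data known, so an excess over all genes may come from that choice. Of 14 bZIP partners and relatives tested in AsPC-1 and 15 in T3M-4, 0 were called in T>C reads by edgeR. Of 19 upstream regulators in AsPC-1, MAPK8 (the kinase JNK1) rose by 0.42 and DUSP4, a MAP kinase phosphatase, fell by 0.73 on the log2 scale, and 0 of 21 were called in T3M-4. Of the AP-1 site genes, 3 of 12 fell in AsPC-1, LAMA3 (a laminin chain, -2.22), PLAUR (the urokinase receptor, -1.20) and CCND1 (cyclin D1, -0.52), and CD44 rose by 0.34. In T3M-4, 2 of 19 fell, among them LAMA3 (-1.83), and 2 rose, the collagenases MMP1 (1.72) and MMP13 (1.37). The medians of the AP-1 site list were -0.13 in AsPC-1 and -0.53 in T3M-4, beside 0.03 and 0.01 over all genes.

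With RUVBL1/2 inhibition for 4 h no member passed the test in either line. In AsPC-1, CB-6644 against DMSO gave 0 of 8 members called in T>C reads by edgeR and 0 by DESeq2 (0 at an unadjusted p under 0.05), beside 0% of all genes by both. In all reads 0 of 9 were called by either tool, beside 0% by edgeR and 0.036% by DESeq2. Unadjusted edgeR p were under 0.05 for 1 of the 9, JUN at -0.51, and for 267 of 13891 genes. JUNB, the member that fell with dTAG, was 110.4, 235, 273, 99.03 and 92.0 T>C CPM with CB-6644 and 166, 184, 206, 146 and 113 with DMSO, a log2 change of -0.06 (SE 0.31, 95% interval -0.68 to 0.55). The groups of JUNB overlapped. Library sets were not balanced, since library 1.2 was in the second set with CB-6644 and in the first with DMSO. JUNB was lower with CB-6644 in the first set (110.4 against 166 and 184) and the smallest (99.03 and 92.0 against 146 and 113). In the second set it was higher (235 and 273 against 206). The change given had no term for the library set. FOSB and ATF3 stood at -1.43 and -1.71 and moved to 0.69 and -0.10 without DMSO library 2.1. In T3M-4, changes ran from -0.33 for JUND to 0.38 for ATF3, with 0 of 8 members called in T>C reads by edgeR and by DESeq2 (0 at an unadjusted p under 0.05), beside 0% and 0.0372% of all genes. In all reads 0 of 9 were called by either tool (0 unadjusted), beside 0.0127% and 0.0634%. The effects in the 2 lines did not differ past the test for 8 members (0 called by edgeR and DESeq2, 0 unadjusted), beside 0% and 0.0286% of all genes.

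The labelled shares of JUND and FOSL1 did not overlap between CB-6644 and DMSO in AsPC-1 at 4 h. JUND was 16.1, 15.5, 14.7, 14.6 and 16.8% labelled with CB-6644 and 24.6, 23.7, 24.6, 22.5 and 20.2% with DMSO. FOSL1 was at 29.9, 29.8, 33.4, 32.0 and 31.4% against 37.6, 41.8, 38.3, 37.4 and 35.0%. The share of whole libraries did not overlap either, at 8.23 to 8.90% with CB-6644 and 9.36 to 10.6% with DMSO. How many of all genes had shares without overlap was not counted. The limma changes of JUND and FOSL1 were -0.70 (SE 0.11, adjusted p = 0.0817) and -0.43 (SE 0.11, adjusted p = 0.129), beside a median of -0.27 over all genes. By limma 0 of 9 members were called, beside 0.0144% of all genes. Unadjusted limma p were under 0.05 for 4 of the 9 and for 2717 of 13891 genes. In T3M-4 at 4 h and in AsPC-1 at 12 h, 0 of 9 members were called by limma in the share (0 unadjusted in each), beside 0% of all genes in both.

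At 12 h of CB-6644, JUND, the member with the lowest labelled share of the 8 above the limit of detection, was the lowest relative to DMSO. It stood at 27.1, 25.3, 27.4 and 24.5 T>C CPM with CB-6644 and at 53.9, 48.4, 55.9 and 35.4 with DMSO, and at 9.63, 10.1, 10.7 and 9.40 against 24.6, 19.5, 22.5 and 16.3 CPM in all reads. Neither pair of groups overlapped, but how many of all genes had groups without overlap was not counted. The log2 change was -0.97 in T>C reads (SE 0.19, unadjusted p = 0.000494, edgeR adjusted p = 0.754) and -1.08 in all reads (SE 0.17, adjusted p = 0.435), not called by edgeR, whereas DESeq2 called it in both (-0.98, adjusted p = 0.00287, and -1.10, adjusted p = 1.35e-05). It ran from -1.08 to -0.88 in T>C reads with each library left out. The share of JUND overlapped, at 25.7, 24.5, 21.1 and 21.1% against 21.5, 23.2, 21.1 and 20.2%. In all, edgeR called 0 of 8 members in T>C reads and 0 of 9 in all reads, beside 0% of all genes in both. Its unadjusted p was under 0.05 for 1 member in each, beside 473 of 12204 and 325 of 14398 genes. DESeq2 called 1 in each, JUND, beside 0.164% and 0.132% of all genes. The effect on JUND at 12 h minus that at 4 h was -0.47 (SE 0.33, edgeR adjusted p = 1), and 0 of 8 members differed between the times by edgeR or DESeq2 (0 unadjusted), beside 0% of all genes by both. Time and sequencing batch cannot be told apart.

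With CDK9 inhibition much of the family fell. NVP-2 was compared with the same DMSO 4 h libraries as CB-6644, and in AsPC-1 all NVP-2 libraries were of sequencing batch 2 and all DMSO 4 h libraries of batch 1, so that treatment and batch cannot be told apart there. T>C CPM are relative to a labelled pool that itself shrank, to 1.35 to 1.91% of reads in AsPC-1 and 1.80 to 2.80% in T3M-4, compared with at least 7.58% and 11.0% in the other treatments. In AsPC-1, 4 of 8 members fell in T>C reads. Of all genes, 30.5% were called, 2018 of 11498 lower and 1488 higher. The members' median change was -2.25 beside -0.05 over all genes. In T3M-4, 6 of 8 fell, with a median of -1.94 beside -0.12. There 26.7% of all genes were called, 1740 of 12242 lower and 1523 higher.

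FOSL1 fell furthest among the members called in T3M-4, from 314, 442, 473 and 487 T>C CPM to 35.2, 17.7, 7.71 and 20.2 (log2 -3.90, edgeR adjusted p = 0.000294), and in AsPC-1 from 212, 175, 259, 274 and 204 to 25.0, 15.96, 23.7 and 56.7 (-2.36, adjusted p = 0.000799). The groups of FOSL1 did not overlap in either line. FOSL2 fell from 149, 143, 78.8, 128 and 85.5 to 14.8, 27.8, 14.4 and 16.1 in AsPC-1 (-2.14, adjusted p = 0.000439) and from 143, 153, 232 and 239 to 47.1, 40.5, 43.1 and 37.7 in T3M-4 (-1.62, adjusted p = 0.00351). FOSB fell in T3M-4 from 40.8, 77.0, 49.5 and 51.5 to 7.60, 13.2, 2.95 and 2.15 (-2.60, adjusted p = 0.00354). In AsPC-1, FOSB had 0, 18, 2 and 36 T>C reads with NVP-2. Its change of -3.38 (edgeR adjusted p = 0.07) became -1.21 without DMSO library 2.1 and was called without NVP-2 library 2.2 (-4.70, adjusted p = 0.0464).

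In the JUN family, JUN fell from 163, 298, 124, 342 and 240 T>C CPM to 18.8, 12.5, 33.6 and 35.7 in AsPC-1 (log2 -2.68, edgeR adjusted p = 0.000608) and from 108, 94.2, 125 and 124 to 28.4, 15.7, 4.31 and 8.89 in T3M-4 (-2.52, adjusted p = 0.00239). JUND fell from 63.1, 28.2, 31.1, 47.1 and 29.6 to 2.56, 5.90, 9.61 and 12.5 (-1.88, adjusted p = 0.00809) and from 14.2, 13.0, 17.5 and 17.0 to 4.56, 2.21, 2.95 and 2.42 (-1.79, adjusted p = 0.0135). JUNB fell in T3M-4 from 147, 236, 477 and 446 to 59.3, 104, 65.5 and 66.0 (-1.60, adjusted p = 0.015). JUNB in AsPC-1 overlapped, at 166, 184, 206, 146 and 113 against 41.5, 39.2, 130 and 98.6, and was not called (-0.55, adjusted p = 0.254), although a block for library set called it (-1.09, adjusted p = 0.0261), as it did 21.6% of all genes. In T3M-4 the calls of JUNB were lost without DMSO library 2.1 or 2.2 (adjusted p up to 0.0521) and that of JUND without DMSO library 2.2 (adjusted p = 0.0506). JUNB was -0.85 (adjusted p = 0.16) in the first batch and -2.02 (adjusted p = 0.00745) in the second.

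FOS was the 1 member tested whose T>C value was not lower with NVP-2 in AsPC-1. Its T>C CPM were 15.99, 17.7, 34.0, 55.1 and 7.96 with DMSO and 16.8, 18.04, 65.9 and 44.6 with NVP-2, on 59, 52, 192 and 100 reads, and the groups overlapped. Relative to the shrunken labelled pool the change was 0.98 (SE 0.56, edgeR adjusted p = 0.208), and with T>C counts scaled by the totals of all reads it was -2.06 (adjusted p = 0.00389), a change of direction. That scaling moved the median of all genes to -3.05 in AsPC-1 and -2.97 in T3M-4 and called all 8 members lower in AsPC-1, where it called 92.7% of all genes. With controls of the same sequencing batch in place of DMSO 4 h, the change relative to the labelled pool was 1.52 (adjusted p = 0.0305) against DMSO 12 h and 1.78 (adjusted p = 0.024) against NEG of experiment 3. In T3M-4, FOS went from 11.2, 8.10, 7.59 and 4.92 CPM to 1.01, 1.00, 0 and 2.96, on 4, 5, 0 and 11 reads, with no overlap (-2.09, edgeR adjusted p = 0.0931), and was called by DESeq2 (-2.03, adjusted p = 0.0272, beside 36.3% of all genes) and by edgeR without NVP-2 library 2.2 (-3.16, adjusted p = 0.0176).

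The effect of NVP-2 on FOS in T3M-4 minus that in AsPC-1 was -3.12 (SE 0.97, unadjusted p = 0.00439, edgeR adjusted p = 0.136). By edgeR 0 of 8 members differed between the lines, beside 0.851% of all genes. By DESeq2 1 did, FOS (-3.10, adjusted p = 0.0312), beside 4.51% of all genes. Unadjusted edgeR p were under 0.05 for 2 of the 8, FOS and FOSL1, and for 1811 of 13159 genes. ATF3 had 12, 0, 9 and 0 T>C reads with NVP-2 in AsPC-1 and was not called in T>C reads in either line (-3.02, adjusted p = 0.0771, and -1.39, adjusted p = 0.168 by edgeR). Without NVP-2 library 1.1, ATF3 was called in T3M-4 (-2.42, adjusted p = 0.0203). BATF3 was listed at 0 T>C reads in every NVP-2 library.

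In all reads, 6 of 9 members fell with NVP-2 in AsPC-1 and 4 of 9 in T3M-4. Of all genes, 11.8% were called in AsPC-1, 1183 of 14095 lower and 484 higher. In T3M-4 5.16% were called, 769 of 15653 lower and 38 higher. JUN fell from 38.5, 59.6, 29.2, 64.4 and 50.2 CPM to 3.38, 2.83, 3.72 and 3.33 in AsPC-1, a log2 change of -3.65 (edgeR adjusted p = 4.83e-05), and by 2.37 on the log2 scale in T3M-4 (adjusted p = 0.0375). JUNB fell from 26.2, 31.3, 33.7, 24.01 and 18.9 to 2.84, 2.54, 6.64 and 4.99 in AsPC-1 (-2.46, adjusted p = 0.000805) and from 25.8, 39.0, 64.7 and 60.6 to 5.04, 9.78, 6.55 and 5.64 in T3M-4 (-2.69, adjusted p = 0.00281). The groups of JUN and JUNB in AsPC-1 and of JUNB in T3M-4 did not overlap. FOSL1 changed by -1.78 and -1.77 and FOSL2 by -1.78 and -1.47 in AsPC-1 and T3M-4, all called.

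JUND was lower by less, from 26.4, 12.7, 13.3, 19.6 and 13.8 CPM of all reads to 6.35, 12.2, 9.45 and 17.2 in AsPC-1, with overlap (log2 -0.40, edgeR adjusted p = 0.456), and from 5.58, 5.26, 5.56 and 5.76 to 3.68, 3.96, 3.43 and 3.05 in T3M-4, without overlap (-0.51, adjusted p = 0.0815). FOSB and ATF3 completed the 6 calls in AsPC-1 (-3.39, adjusted p = 0.0318, and -2.70, adjusted p = 0.0442). FOSB lost its call without any 1 NVP-2 library (adjusted p up to 0.0863) and ATF3 in 7 of 9 fits, at -1.54 without DMSO library 2.1, where FOSB stood at -1.93 (adjusted p = 0.0258). The T3M-4 call of JUN was lost in 6 of 8 fits (adjusted p up to 0.0943), all but those without NVP-2 libraries 1.1 and 1.2. With the experiment as a block in T3M-4, edgeR also called FOS (-2.46, adjusted p = 0.00322), JUND (-0.51, adjusted p = 0.0234), ATF3 (-0.66, adjusted p = 0.0268) and FOSB, 8 of 9 members in all, beside 15.2% of all genes. DESeq2 called 7, beside 9.41%.

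The labelled share fell for all 9 members in both lines with NVP-2 by limma, as it did for 86.5% of all genes in AsPC-1 and 81.9% in T3M-4, but to different depths. In AsPC-1 the share of FOS went from 60.2, 68.1, 66.3, 75.5 and 57.9% to 32.2, 29.9, 43.0 and 42.4% (log2 ratio -1.73, limma adjusted p = 0.00307) and that of JUNB from 65.4, 62.6, 64.4, 56.9 and 56.3% to 27.9, 22.9, 30.2 and 26.7% (-2.10, adjusted p = 0.000168), beside a median of -3.29 over all genes. At the other end, JUND went from a mean of 23.1% to 1.01% (-4.91), FOSL1 from 38.04% to 2.998% (-4.36) and FOSL2 from 42.3% to 4.27% (-4.05). In T3M-4, JUNB kept 24.7% (from 81.0%, -3.72), JUN 9.70% (from 67.5%, -4.37) and FOSL1 1.35% (from 42.5%, -5.92), beside a median of -3.43. The T3M-4 share of FOS, 4.30, 12.2, 0 and 50%, rested on at most 11 T>C reads per library, and that of BATF3 on 0 converted reads. The AsPC-1 call of BATF3 was lost with a pseudocount of 2 in place of 0.5 reads (adjusted p = 0.0609) and in 5 of 9 fits with 1 library left out (adjusted p up to 0.0785).

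**Figure D4:**
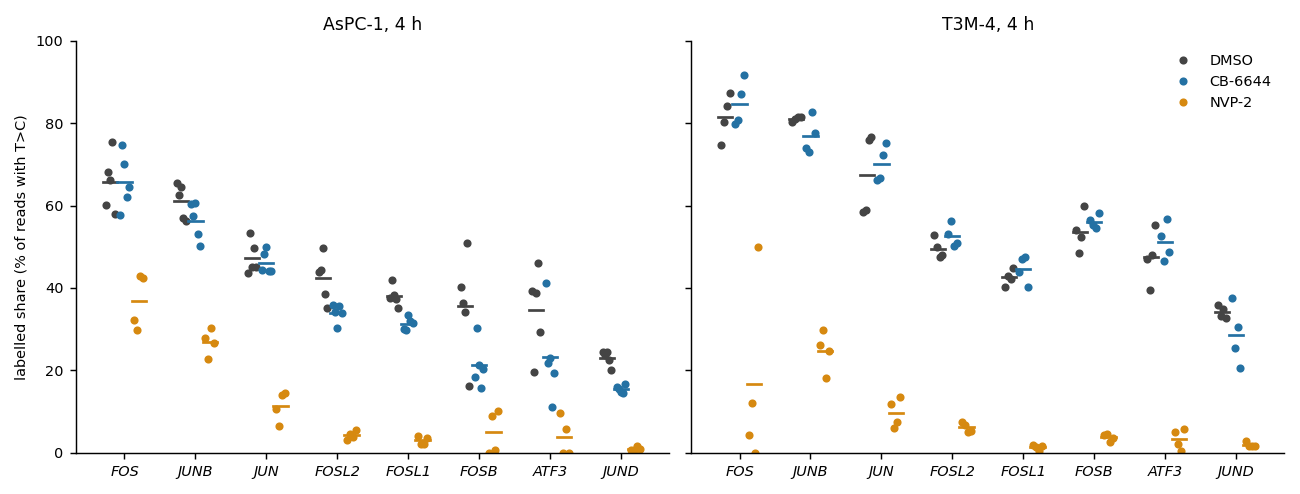
Labelled share (%) of 8 members, without BATF3, at 4 h in DMSO, CB-6644 and NVP-2 libraries of both lines, with a line at each mean. FOS and JUNB are highest with DMSO (65.6% and 61.1% in AsPC-1) and keep the most label with NVP-2 in AsPC-1 (36.9% and 26.9%), while JUND is the lowest of the 8 with DMSO in both lines (23.1% and 34.2%).

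With NVP-2 the partners called were all lower, and the regulators moved in both directions. These T>C changes are relative to a labelled pool that itself shrank, so a rise here is not a rise in the amount of new RNA. These lists, too, were chosen with earlier results of these data known. Of all genes, 30.5% were called in AsPC-1 and 26.7% in T3M-4, with medians of -0.05 and -0.12. Of 15 bZIP partners and relatives tested in AsPC-1, 7 fell and 0 rose in T>C reads by edgeR, among them DDIT3 (the stress factor CHOP, -3.46) and CEBPB (-2.86). Of 14 in T3M-4, 8 fell and 0 rose, DDIT3 by 5.14 on the log2 scale. Of 19 upstream regulators in AsPC-1, 6 fell, including DUSP6 and SPRY4, feedback inhibitors of MAP kinase signalling (-2.92 each), and SRF, which drives FOS transcription (-1.68), and 7 rose, including ELK4 (1.76) and MAPK8 (1.58). In T3M-4, 6 of 21 fell, with DUSP1 at -4.04 and DUSP6 at -3.83, and 2 rose. Of genes with textbook AP-1 sites, 5 of 13 fell in AsPC-1, among them PLAU (-3.68), and TIMP1 rose by 1.00. In T3M-4, 4 of 19 fell, with HBEGF at -2.41, and MMP9 (3.59) and MMP10 (2.49) rose. In all reads, 0 of 19 regulators rose and 5 fell in AsPC-1, and 1 of 21 rose and 6 fell in T3M-4. Of AP-1 site genes in all reads, 0 of 14 rose and 3 fell in AsPC-1, and 0 of 20 rose and 4 fell in T3M-4. Of all genes, 11.8% and 5.16% were called in all reads. List medians were -1.36, -0.05 and -1.22 in AsPC-1 for partners, regulators and AP-1 site genes, and -1.32, -0.39 and -0.64 in T3M-4. With CB-6644 0 genes of these 3 lists were called in any comparison by edgeR. There edgeR called 0% of all genes in T>C reads and at most 0.0127% in all reads, so the 0 shows nothing particular to the lists.

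Across libraries without NVP-2, the genes most like each member were found by Pearson correlation of log2 T>C CPM. It ran over 38 AsPC-1 and 16 T3M-4 libraries among 11236 genes. The libraries share treatments, batches and, in AsPC-1, library sets, so r includes shifts between these. FOSL2 was most like MAP3K1 (mean r = 0.879 over the lines), JUNB most like FERMT1 (0.847) and FAM83A (0.845), FOSL1 most like S100A16 (0.796). FOS was most like ARL14 (0.751) followed by SLK (0.726) and the phosphatase gene DUSP1 (0.682). ATF3 was most like AFF4 (0.707), JUN most like CCN1 (0.687), FOSB most like FOS (0.629) and JUND most like PTPA (0.601). Among the members, FOSL1, FOSL2 and JUNB moved together in T3M-4, at r = 0.905 for FOSL1 with FOSL2, 0.893 for FOSL1 with JUNB and 0.942 for FOSL2 with JUNB. These genes were lower in every T3M-4 dTAG library than in every NEG library, and that shift enters these r values. The same pairs stood at -0.355, 0.285 and -0.343 in AsPC-1. There FOSL2 followed JUN (0.75), FOS followed FOSB (0.748) and JUNB (0.642), and FOSB followed ATF3 (0.613).

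**Figure D5:**
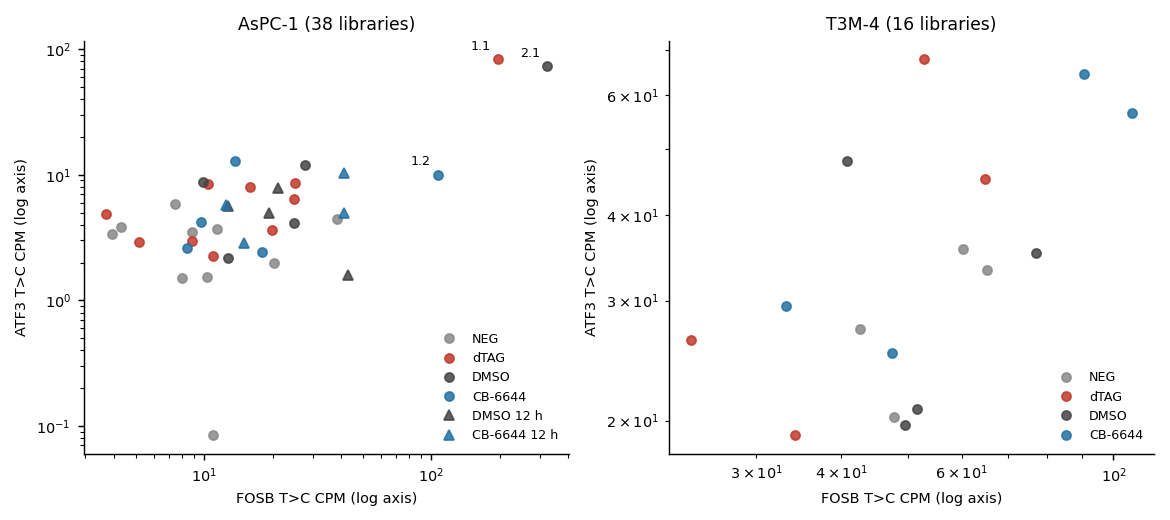
T>C CPM of FOSB against ATF3 on log axes in the 38 AsPC-1 and 16 T3M-4 libraries without NVP-2. In AsPC-1 the DMSO 4 h library 2.1 and the dTAG library 1.1 are high in both genes, and the CB-6644 4 h library 1.2 is high in FOSB (107 CPM) at an ATF3 of 10.0 CPM.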

How the data were processed

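SLAM-seq was performed on 62 libraries of AsPC-1 and T3M-4. Per the labels and the study's methods, RNA labelled with 4-thiouridine was alkylated and made into 3′-end libraries, and the authors aligned reads to hg38 with slamdunk at its default settings, filtered T>C variants and summed reads over GENCODE v44 3′UTR exons per gene (slamdunk version not given in the sources used here; use of strand not stated). The deposited values are raw counts of T>C reads and of all reads. The tables also hold 18 unnamed columns, which were not used, and 1 all-reads column, of dTAG library 3.1, was left out.

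Groups came from the labels. In R 4.3.3, T>C and all-read counts of each treatment and its control were tested with edgeR 4.0.16 (filterByExpr, TMM, quasi-likelihood), and the labelled share with limma 3.58.1 (trend) on log2((T>C + 0.5)/(all - T>C + 0.5)), each over all genes with Benjamini-Hochberg adjustment at 0.05. Differences between lines or times were interaction terms. DESeq2 1.42.0 (the study's tool), other size factors, filters, blocks, batches, sums per experiment and libraries left out were alternatives, of which 2 were added after seeing the data: halving the FOSL2 counts, and leaving out the AsPC-1 libraries of highest FOSB and ATF3. CPM are reads of a gene divided by the counted reads of its library and scaled to a fixed total. Fold changes are those of the fit.

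The number in a library's label was used as a block. In T3M-4 it coincides with the sequencing batch in the labels (correlation of same-numbered deviations 0.316 to 0.53). In AsPC-1, where experiments 1 and 2 share a batch, it was taken to pair samples because every pair deviated together for dTAG (3 pairs, 0.459 to 0.634) and at 12 h (4 pairs by replicate number, 0.33 to 0.65). At 12 h, however, same-numbered libraries also shared a library set. For dTAG and NEG, experiment 2 was a library set of its own and experiment 3 was in another batch. Libraries of unlike number were not compared, so these correlations cannot show pairing. For CB-6644 at 4 h in AsPC-1 (2 pairs in 1 batch, 0.457) the samples share only a number, and for NVP-2 in AsPC-1 (-0.00449) only the library set served as a block. The scripts were tested on simulated data. The members and the lists of partners, regulators, AP-1 site genes and markers were chosen with earlier results of these data known. All 9 members are named; other genes come from those lists (members called or examples) or are the 3 genes most like a member. Motifs were searched in the RefSeq promoters available for 7 members. Values of some genes of the AP-1 site list are not reported here.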

Additional observations from a re-analysis of the deposited data

Results flagged for a closer look

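Of 108 combinations of a gene and a group, 106 could be tested for a library that stood apart from the rest of its group by Dixon's 95% criterion, and 11 held one; chance gives about 1 in 20. Of these, 5 came from a pair of AsPC-1 libraries. In dTAG library 1.1, FOSB stood at 196.5 T>C CPM (1971 reads) where the next library had 25.2, ATF3 at 82.7 CPM (829 reads) where the next had 8.55, and FOS at 34.9 CPM (350 reads) where the next had 15. In DMSO 4 h library 2.1, FOSB stood at 324.1 CPM (3840 reads), with 27.9 in the next, and ATF3 at 73.0 CPM (865 reads), with 12.0 in the next. The changes of FOSB and ATF3 with and without these libraries stand beside their results above; what set the libraries apart was not tested.

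FOSB was also high in the AsPC-1 CB-6644 4 h library 1.2, at 106.8 CPM on 1159 reads. NEG library 3.3 in AsPC-1 was highest in FOSB (38.5 CPM) and in JUND (58.7 CPM). FOSL2 was highest in the AsPC-1 NVP-2 library 1.2, at 27.8 CPM on 80 reads. JUNB was highest in the T3M-4 NVP-2 library 1.2, at 104.4 CPM on 520 reads. BATF3 was highest in the T3M-4 DMSO 4 h library 1.2, at 1.12 CPM on 19 reads.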

How the results depend on the processing

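The number of members called changed by over 1.5 times under these alternatives. The share of all genes called is not given for DESeq2 in T>C reads of T3M-4 dTAG. Nor is it given for sums per experiment, single batches or fits with libraries left out. The counts of those fits show nothing particular to the members. For the other alternatives the share stands beside the result above. DESeq2 called 2 in place of 1 in T>C reads and 2 in place of 0 in all reads of T3M-4 dTAG, 1 in place of 0 in T>C reads and in all reads of CB-6644 at 12 h, 7 in place of 4 in all reads of T3M-4 NVP-2, and 1 in place of 0 for the NVP-2 difference between the lines. With the experiment as a block, taken as the pairing, 3 in place of 1 were called in T>C reads and 3 in place of 0 in all reads of T3M-4 dTAG. In all reads of T3M-4 NVP-2 the block gave 8 in place of 4. The block moved no other count of members by over 1.5 times. With library set and experiment as a block 3 in place of 1 were called in T>C reads of AsPC-1 dTAG. Sums per experiment, which leave fewer samples, left 0 in T>C reads of AsPC-1 dTAG, T3M-4 dTAG and T3M-4 NVP-2 (1, 1 and 6 without summing). Within batches, 0 and 0 were called in T>C reads and 3 and 0 in the share of AsPC-1 dTAG, and 0 in the first batch of T3M-4 dTAG T>C reads. Scaling T>C reads by the totals of all reads called 8 in place of 4 with NVP-2 in AsPC-1 and turned FOS to -2.06. Leaving out 1 library or experiment at a time gave 0 to 1 calls in T>C and all reads of AsPC-1 dTAG, 0 to 5 in its share, 0 to 1 in T>C reads of T3M-4 dTAG, and 3 to 8 in T>C reads and 4 to 8 in all reads between the lines, where FOSB ran from -0.88 to 1.59 and from -0.82 to 0.98. Unless shown above, the cause of a change was not tested. The T3M-4 change of FOS in share had no value with at least 50 reads in every library. FOSL2 T>C counts were even in 62 of 62 libraries; halving them changed no count by over 1.5 times. Depth limits BATF3 throughout and FOS, FOSB and ATF3 with NVP-2; counts carry no molecular identifiers.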
